A study of Rattus norvegicus with 10 samples.

Results

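The genes described here encode the core and accessory machinery of pre-mRNA splicing in the prefrontal cortex of male Sprague-Dawley rats, measured by RNA-seq in 5 animals' tissue samples after early life stress (ELS) and in 5 control samples. They were taken by symbol: names beginning with Srsf and a digit, Hnrnp, Snrp, Sf3a or Sf3b, with a mean of at least 0.5 RPKM over the 10 libraries. All 52 rows with such a symbol met that mean, out of 16041 rows in the table. The row nearest the limit was Snrpn, with a mean of 0.70 RPKM, and 0 rows lay under it. The 52 rows carry 51 symbols, since Hnrnpa3 occurs on a pair of rows. By family there are 11 SR protein genes, 19 hnRNP genes, 13 genes of small nuclear ribonucleoprotein (snRNP) proteins, and 9 genes of the SF3A and SF3B complexes.

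The ELS rats went through a limited nesting paradigm, in which a dam and her pups have little nest material, between postnatal days 2 and 9. The controls carry the condition label control and no stress treatment is given for them. All rats were male, and tissue was collected at postnatal day 91, so the question is which transcript levels differ in adulthood. Each library is labelled as a separate tissue sample, and litters are not given, so a p-value here reflects sample-to-sample spread, which may be partly technical. Levels are RPKM, reads scaled to gene length and to the library's total, so genes can be compared with each other.

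Splicing removes introns from a new transcript on the spliceosome, which is built from small nuclear RNAs and their proteins. SR proteins bind exons and recruit the machinery to the splice sites nearby. The hnRNPs coat nascent transcripts and often oppose exon inclusion, and they also act in RNA stability and transport. In most of these snRNPs a ring of Sm proteins sits on the small nuclear RNA, and the SF3A and SF3B complexes join the U2 snRNP to hold the branch point of the intron. In the brain splicing is unusually diverse, and neurons use many exons that other cells skip.

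Library totals ran from 18838898 to 22311136 reads, and single members had between 13 reads (Snrpn) and 7724 reads (Hnrnpu) in a library. Control replicate 4 stood apart: comparing reads gene by gene, the mean chi-square per row between it and the other controls was 41.2 to 43.8, against 4.94 to 11.1 among the other controls and 2.81 to 15.2 among ELS libraries. The summed levels of cell type markers also had different ranges in the groups, though no row of the table passed the adjusted threshold given further on. Summed over 13 oligodendrocyte and myelin genes, the level was 913.6 to 1199 RPKM in ELS libraries and 1214 to 2472 RPKM in controls, of which control replicate 4 held 2472 and the next highest 1553. The 9 astrocyte markers summed to 1096 to 1230 RPKM in ELS libraries and 1258 to 1499 RPKM in controls, and the 8 microglial markers to 88.25 to 105.9 RPKM in ELS and 100.5 to 119.6 RPKM in controls. The 10 neuronal markers summed to 2717 to 3128 RPKM in ELS and 2474 to 2739 RPKM in controls. Blood markers, measured on 4 rows with Hba-a2 on a pair of them, summed to 213.8 to 438 RPKM in ELS and 411.5 to 981 RPKM in controls. The 6 measured endothelial and pericyte markers summed to 75.28 to 83.66 RPKM in ELS and 68.35 to 88.47 RPKM in controls. No marker row was at 0 in any library, and the neuronal and glial markers of cortex were all present. The part of these shifts in the members' results was not tested, and in bulk tissue fewer cells of a type cannot be told apart from less RNA per cell.

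Transcripts of the splicing machinery had similar levels in ELS and control cortex, and no member passed the test. Of the 52 members, 0 passed an adjusted p of 0.05 (limma with Benjamini-Hochberg adjustment over 14642 rows), where the share of all rows that passed was 0%. At an unadjusted p under 0.05, limma gave 1 member higher in ELS, Hnrnph2, where the share of all rows was 10.1%. It gave 4 members lower in ELS, Sf3b5, Srsf9, Srsf7 and Snrpg, where the share of all rows was 10.3%. Both directions together make 9.62% of the members and 20.4% of all rows. Without control replicate 4 these counts became 3 higher and 2 lower, where the shares of all rows were 11.1% and 10.6%. Without ELS replicate 2 they became 3 higher and 5 lower, where the shares of all rows were 11.4% and 11.2%.

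The differences were small in size. The members' median log2 fold change was -0.04 against 0.00371 for all rows tested, with 34 members below 0 and 18 above, and 65.4% of members below 0 against 49.4% of all rows. Without control replicate 4 the median was -0.02, with 32 members below 0. Single members ran from -0.33 for Hnrnph3 to 0.25 for Snrpn, which are among the least abundant. Only Hnrnph3 had an estimate beyond 1.25-fold (0.32 on the log2 scale) in either direction, 1.92% of members against 15.7% of all rows. For 44 of the 52 members the whole 95% interval lay within 1.25-fold either way, against 46.2% of all rows; that limit was picked once values were known. The median standard error was 0.0592 for members and 0.0976 for all rows, and members were more abundant, with a median level of 19.7 RPKM against 7.20 RPKM. These intervals bound single members and do not show that any gene was equal in the groups.

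**Figure D1:**
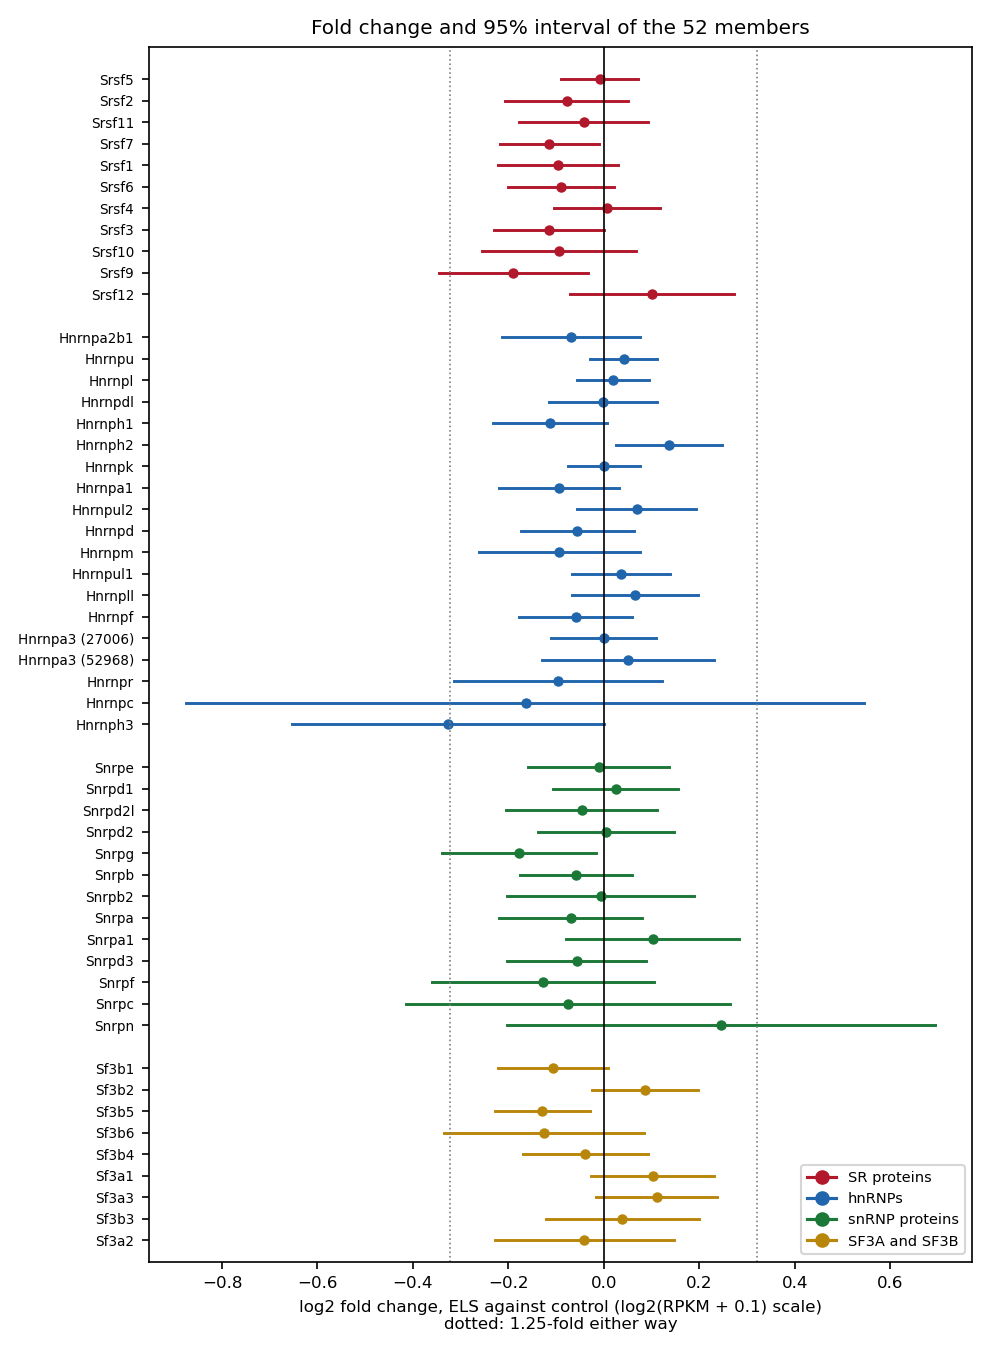
Log2 fold change of each member, ELS over control (x axis; logs were taken of RPKM + 0.1), as a point with its 95% interval from limma, grouped by family and ordered within a family by mean level. Most intervals cross 0 and 44 of 52 lie inside the dotted 1.25-fold lines. The wide ones belong to Hnrnpc, Hnrnph3, Snrpc and Snrpn, whose rows had few reads.

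**Figure D2:**
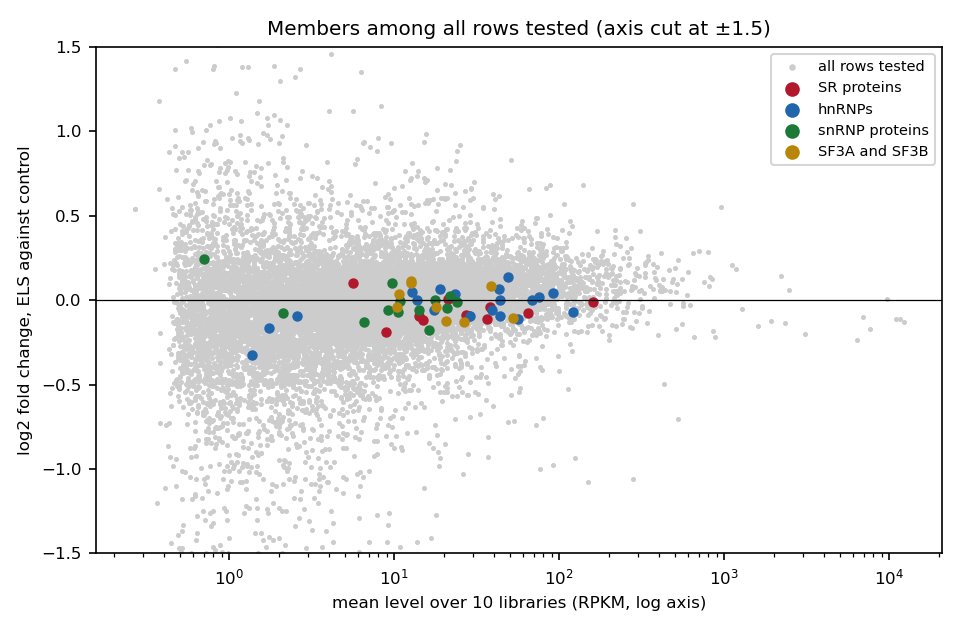
Log2 fold change of ELS against control (y axis, cut at 1.5 either way, which leaves out 86 rows) against the mean level over the 10 libraries in RPKM on a log axis, for all rows tested in grey and the members in colour. The members lie close to the 0 line, from 0.70 RPKM for Snrpn to 160.5 RPKM for Srsf5.

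Among SR proteins, 9 of 11 genes had a log2 fold change below 0, and the family's median was -0.09; without control replicate 4 it was -0.04, with 8 of 11 lower. That library held the highest value of 7 of the 11 genes. Srsf5 was the most abundant member of all, at 153, 157, 167, 163 and 159.6 RPKM in ELS replicates 1 to 5 and 159.5, 160.2, 164, 167 and 155 RPKM in control replicates 1 to 5. Its groups overlapped fully, with a log2 fold change of -0.01 ± 0.04 (SE) and a 95% interval of -0.09 to 0.07. Srsf2, the classical marker of nuclear speckles, was next in level among the SR genes. It had 63.3 ± 3.08 RPKM in ELS and 66.9 ± 5.27 RPKM in controls (mean ± SD, n = 5 in each group, as for all such values here), and its log2 fold change was -0.08 ± 0.06. That of Srsf2 was -0.04 without control replicate 4 and -0.05 without ELS replicate 4.

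Srsf7, an SR protein with a zinc knuckle that also serves mRNA export, was at 32.0, 35.3, 36.2, 35.0 and 36 RPKM in ELS and at 37.5, 36.6, 37.2, 40.6 and 36.8 RPKM in controls. All 5 ELS libraries lay below all 5 controls, though the highest ELS value and the lowest control value were only 36.2 and 36.6 RPKM. The log2 fold change was -0.11 ± 0.05 (limma adjusted p = 0.21), and -0.09 without control replicate 4. Such a split with ELS below was seen in 2 members, Srsf7 and Sf3b5, and in 2.6% of all rows; the opposite split was seen in 0 members and 3.08% of all rows.

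Srsf9, a small SR protein that acts in alternative splice site choice, was at 9.17, 8.23, 7.81, 8.08 and 8.19 RPKM in ELS and at 9.02, 10.1, 9.98, 10.1 and 8.25 RPKM in controls. In 4 of 5 ELS libraries it lay below every control, while ELS replicate 1 lay among the controls (log2 fold change -0.19 ± 0.07, limma adjusted p = 0.183). On the other side Srsf12, the least abundant SR gene and a relative of the splicing repressor gene Srsf10, had 5.80 ± 0.267 RPKM in ELS and 5.42 ± 0.601 RPKM in controls, and its log2 fold change of 0.10 ± 0.08 became 0.16 without control replicate 4. Srsf4 did not separate either, at 21.2 ± 1.35 RPKM in ELS and 21.1 ± 0.679 RPKM in controls. The remaining SR genes, Srsf1, Srsf3, Srsf6, Srsf10 and Srsf11, had log2 fold changes between -0.115 and -0.0426.

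The hnRNP genes were the most abundant family, with a summed level of 728.5 to 762.2 RPKM in ELS libraries and 736.9 to 809.1 RPKM in controls, and their median log2 fold change was -0.00169, with 11 of 19 below 0. Without single libraries the hnRNP median was -0.0266 to -0.0033. Hnrnpa2b1, which packages transcripts and takes part in the transport of RNA in neurons and oligodendrocytes, was at 117, 113, 125, 119.8 and 118 RPKM in ELS and at 122, 122, 114, 147 and 118 RPKM in controls. The control value of 147 RPKM was that of replicate 4, and the log2 fold change of -0.07 ± 0.07 was -0.0072 without it. Hnrnpu, a chromatin-bound hnRNP also called scaffold attachment factor A, was at 95.7, 90.1, 93.2, 94.7 and 94.6 RPKM in ELS and at 90.5, 88.9, 92.2, 93.3 and 90.0 RPKM in controls. The groups overlapped, with a log2 fold change of 0.04 ± 0.03 and a 95% interval of -0.03 to 0.11.

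Hnrnpk, which binds C-rich RNA, had 43.7 ± 0.663 RPKM in ELS and 43.7 ± 1.35 RPKM in controls, with a 95% interval of -0.08 to 0.08. Hnrnpl, which binds CA-rich RNA, had 76.2 ± 0.962 RPKM in ELS and 75.2 ± 2.54 RPKM in controls, with a 95% interval of -0.06 to 0.09. After Hnrnpu, these were the narrowest intervals of the members. These 2 genes lie outside the rule for named genes and are given for their narrow intervals, seen first.

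The closely related genes Hnrnph1 and Hnrnph2, whose products bind runs of G in RNA, had log2 fold changes of opposite sign, neither past the adjusted threshold. Hnrnph2 was at 49.3, 47.7, 50.8, 56.4 and 52.8 RPKM in ELS and at 48.4, 47.5, 44.1, 47.6 and 45.9 RPKM in controls. In 4 of 5 ELS libraries it was above every control, and ELS replicate 2 lay among the controls (log2 fold change 0.14 ± 0.05, limma adjusted p = 0.179). Hnrnph1 was at 54.8, 54.2, 54.9, 50.3 and 55.4 RPKM in ELS and at 55.7, 55.4, 57.0, 66.1 and 57.8 RPKM in controls. It was below every control in 4 ELS libraries, and ELS replicate 5 was level with the lowest control (log2 fold change -0.11 ± 0.05, limma adjusted p = 0.269), and without control replicate 4 the log2 fold change was -0.07. Within a library, the ratio of Hnrnph2 to Hnrnph1 was 0.899, 0.879, 0.926, 1.12 and 0.952 in ELS and 0.869, 0.857, 0.773, 0.72 and 0.795 in controls. The 5 ELS ratios lay above the 5 control ratios; the pair was chosen after its values were seen, so this is a description with no test, and reads from near-identical stretches of the genes could be shared between them.

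The third gene of that subgroup, Hnrnph3, had few reads, 53 to 106 per library. Hnrnph3 was at 1.23, 1.60, 1.1, 1.13 and 1.02 RPKM in ELS and at 1.4, 1.84, 1.33, 1.78 and 1.38 RPKM in controls. It was below every control in 4 ELS libraries and within the control range in ELS replicate 2 (log2 fold change -0.33 ± 0.15, limma adjusted p = 0.246). The promoter stretches of Hnrnph1 and Hnrnph2 are shown because these paralogues had fold changes of opposite sign. Each is the 100 bases before the RefSeq start on GRCr8, 5′ to 3′ on the gene's strand, Hnrnph1 at chr10:35194533-35194632 and Hnrnph2 at chrX:102074149-102074248, both on the plus strand, with matches to the searched motifs in capitals.
Hnrnph1: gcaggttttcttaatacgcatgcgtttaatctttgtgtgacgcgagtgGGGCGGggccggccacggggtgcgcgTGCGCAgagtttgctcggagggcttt
Hnrnph2: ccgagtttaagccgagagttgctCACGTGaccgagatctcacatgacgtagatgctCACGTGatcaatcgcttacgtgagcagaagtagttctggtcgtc
In this window Hnrnph1 holds a GC box (GGGCGG) and an NRF1 half-site (TGCGCA), and Hnrnph2 holds an E-box (CACGTG) in each of 2 places. A match is a run of letters, and no binding was measured.

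**Figure D3:**
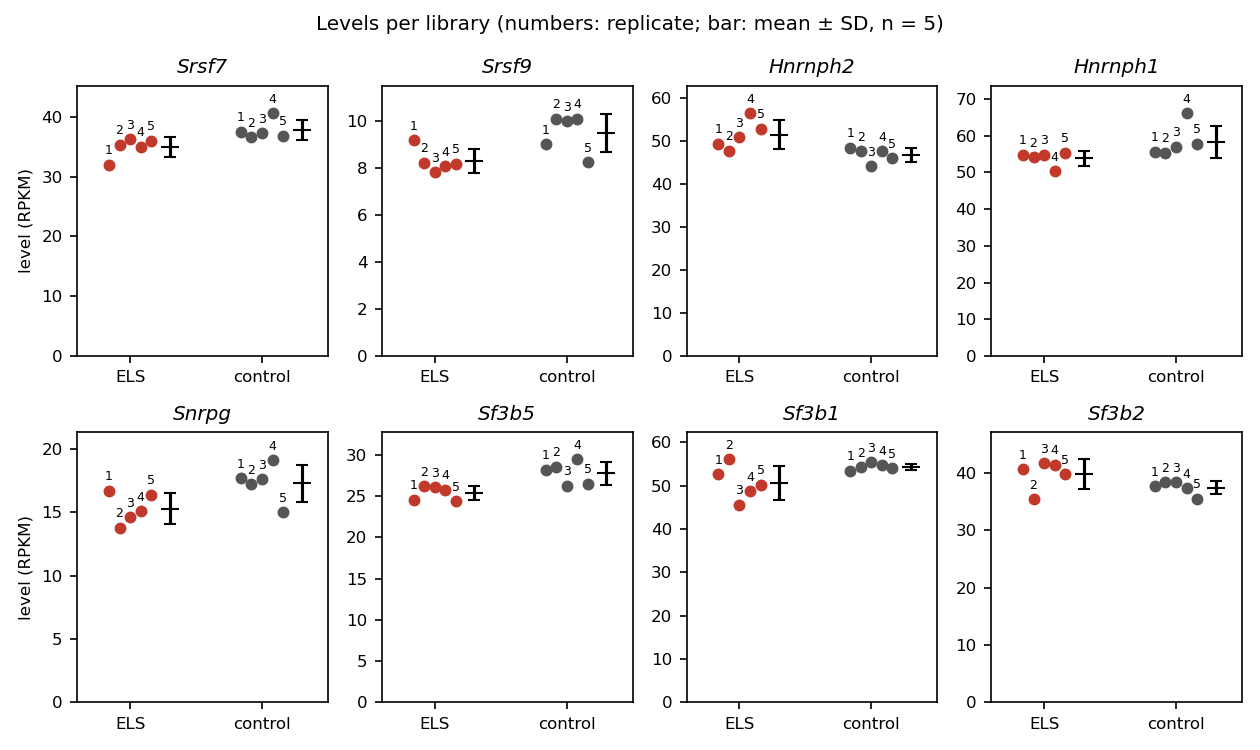
Level in RPKM (y axis, from 0) in every library for 8 members, ELS left and control right, with replicate numbers above the points and the mean ± SD (n = 5) as a bar. Srsf7 and Sf3b5 separate by narrow margins, Hnrnph2 and Hnrnph1 lean in opposite directions, and ELS replicate 2 lies on the far side of the other ELS libraries in Sf3b1 and Sf3b2.

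Among snRNP proteins, 9 of 13 genes had a log2 fold change below 0, and the family's median was -0.05; without control replicate 4 it was -0.02, with 7 of 13 lower. The snRNP median was also smaller without control replicate 3, at -0.0243, and without ELS replicate 2, at -0.0303. The Sm ring genes Snrpb, Snrpd1, Snrpd2, Snrpd3, Snrpe, Snrpf and Snrpg spanned 6.58 RPKM for Snrpf to 24 RPKM for Snrpe on average over the 10 libraries. Snrpg was at 16.7, 13.8, 14.6, 15.1 and 16.4 RPKM in ELS and at 17.7, 17.2, 17.6, 19.1 and 15.0 RPKM in controls. Control replicate 5 lay among the ELS values, so the groups overlapped (log2 fold change -0.18 ± 0.07, limma adjusted p = 0.213). Without control replicate 4 its log2 fold change was -0.14. Snrpf had 6.25 ± 0.369 RPKM in ELS and 6.9 ± 1.1 RPKM in controls (log2 fold change -0.13 ± 0.11), and the log2 fold change was -0.06 without control replicate 4 and -0.21 without control replicate 5. Snrpe, the most abundant of the family, had 23.8 ± 1.07 RPKM in ELS and 24.1 ± 2.44 RPKM in controls (log2 fold change -0.01 ± 0.07). Snrpd1, next in level, had 21.8 ± 1.14 RPKM in ELS and 21.5 ± 1.60 RPKM in controls (log2 fold change 0.02 ± 0.06).

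Genes of proteins particular to single snRNPs gave no clearer difference. Snrpa, Snrpb2 and Snrpc had log2 fold changes between -0.075 and -0.00626. Snrpa1, of the U2 snRNP, was at 9.56, 10.1, 9.60, 10.5 and 10.2 RPKM in ELS and at 8.78, 9.57, 9.17, 11.3 and 8 RPKM in controls. Control replicate 4 was the highest of the 10, the log2 fold change was 0.10 ± 0.08, and it was 0.17 without that library and 0.05 without control replicate 5. Snrpn encodes SmN, which stands in for the Sm protein of Snrpb in neurons and is imprinted in mammals. It was the least abundant member, at 0.707, 0.662, 0.655, 0.726 and 1.08 RPKM in ELS and at 0.509, 0.629, 0.454, 0.839 and 0.74 RPKM in controls, on 13 to 31 reads (log2 fold change 0.25 ± 0.20). Without ELS replicate 5, its highest library, the log2 fold change of Snrpn was 0.13, and without control replicate 3, its lowest, 0.15. Snurf, which shares a transcript with Snrpn in mammals and was looked up after these values were seen, had a row of its own at 1.46 to 1.72 RPKM in ELS and 1.01 to 1.94 RPKM in controls. No source used here says how reads over both rows were counted, so the level of Snrpn is uncertain. The same holds for Snrpd2 and its near copy Snrpd2l, and for the pair of Hnrnpa3 rows.

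The promoter of Snrpg is shown because it was the snRNP gene with the lowest p. Its 100 bases before the RefSeq start lie at chr4:120369611-120369710 on GRCr8, plus strand.
Snrpg: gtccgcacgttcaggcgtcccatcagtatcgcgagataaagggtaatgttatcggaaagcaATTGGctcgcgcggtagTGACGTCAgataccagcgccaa
The capitals mark a CCAAT box in reverse (ATTGG) and a cyclic AMP response element (TGACGTCA).

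In the SF3A and SF3B complexes, the log2 fold change was below 0 for 5 of 9 genes and above 0 for 4, and the median was -0.04. Without control replicate 2 the sign of the median turned, to 0.02, with 3 genes below 0 and 6 above. Sf3b5, a small SF3B subunit, had the lowest p of the 52 members. It was at 24.6, 26.2, 26.1, 25.8 and 24.4 RPKM in ELS and at 28.2, 28.6, 26.3, 29.5 and 26.5 RPKM in controls. All ELS libraries were below all controls, with 26.2 and 26.3 RPKM as the nearest values (log2 fold change -0.13 ± 0.04, limma adjusted p = 0.167). Sf3b5 kept an unadjusted limma p under 0.05 in 18 of 18 alternative settings, Hnrnph2 in 17, Srsf9 in 14, Srsf7 in 11 and Snrpg in 7. None of them passed the adjusted threshold in any setting. The limma adjusted p ran from 0.0957 to 0.31 for Sf3b5 and from 0.0694 to 0.342 for Hnrnph2. The settings reuse the same libraries and no such count was made over all rows, so these counts are a description.

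Sf3b1, the large scaffold of SF3B that clamps the branch point, was at 52.6, 56.1, 45.6, 48.8 and 50.2 RPKM in ELS and at 53.5, 54.3, 55.4, 54.7 and 54.1 RPKM in controls. ELS replicates 1, 3, 4 and 5 lay below them and ELS replicate 2 above (log2 fold change -0.11 ± 0.05, adjusted p = 0.279 by limma). Its partner Sf3b2 was at 40.6, 35.4, 41.6, 41.4 and 39.7 RPKM in ELS and at 37.6, 38.3, 38.3, 37.3 and 35.5 RPKM in controls. Here the same 4 ELS libraries lay above every control and ELS replicate 2 below (log2 fold change 0.09 ± 0.05, adjusted p = 0.356 by limma). Without ELS replicate 2 the log2 fold changes were -0.14 for Sf3b1 and 0.13 for Sf3b2, while without ELS replicate 3 that of Sf3b1 was -0.07. The ratio of Sf3b2 to Sf3b1 within a library, a pair taken after its values were seen, was 0.773, 0.63, 0.913, 0.849 and 0.791 in ELS and 0.702, 0.706, 0.692, 0.683 and 0.656 in controls.

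Sf3a1, a subunit of SF3A, was at 13.3, 11.6, 13.5, 13.6 and 13.8 RPKM in ELS and at 12.9, 12.2, 12.2, 11.4 and 12.5 RPKM in controls (log2 fold change 0.10 ± 0.06, and 0.15 without ELS replicate 2). The same 4 ELS libraries were above every control, and ELS replicate 2 lay within the control range. Sf3a3 was at 13.7, 12.5, 12.7, 13.1 and 13.3 RPKM in ELS and at 11.3, 12.3, 13.6, 11.7 and 11.6 RPKM in controls, with control replicate 3 among the ELS values (log2 fold change 0.11 ± 0.06). Sf3a2, the least abundant of the complexes, had 10.3 ± 0.499 RPKM in ELS and 10.6 ± 1.4 RPKM in controls. Over all members, ELS replicates 1, 3, 4 and 5 lay above every control with replicate 2 not above in 3 (Hnrnph2, Sf3a1, Sf3b2), and below every control with replicate 2 not below in 2 (Hnrnph3, Sf3b1). That is 5.77% and 3.85% of members, against 4.24% and 3.96% of all rows.

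Srsf7 and Sf3b5 are shown by their promoters as the members whose groups did not overlap. The 100 bases before the RefSeq start lie at chr6:20563952-20564051 for Srsf7 and chr1:9177089-9177188 for Sf3b5 on GRCr8, both on the plus strand.
Srsf7: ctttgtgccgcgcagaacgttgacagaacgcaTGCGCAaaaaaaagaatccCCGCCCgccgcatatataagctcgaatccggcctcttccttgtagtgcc
Sf3b5: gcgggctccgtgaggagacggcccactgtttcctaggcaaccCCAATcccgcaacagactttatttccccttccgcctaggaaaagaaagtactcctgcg
The capitals mark an NRF1 half-site and a reversed GC box (CCGCCC) in Srsf7 and a CCAAT box in Sf3b5, so these stretches share no motif of the set searched. RefSeq promoters of 300 bases, 250 before to 50 after the start, were matched by symbol to 49 of the 52 rows, which gave 48 promoters; Sf3b2, Hnrnpll and Snrpd2l had no entry. Shares on either strand are set beside those of 21842 promoters of protein-coding genes and of all 33469 promoters. A GC box was in 60.4% of the 48, against 41.8% of protein-coding and 33.1% of all promoters, and a CCAAT box in 54.2%, against 38% and 37.5%. An ETS core (CCGGAAG) was in 31.2%, against 10.7% and 8.75%, and the NRF1 half-site in 25%, against 8.74% and 7.24%. The E-box was in 12.5%, against 7.01% and 6.42%, and the TATA box (TATAAA) in 10.4%, against 13% and 14.2%. The YY1 core (AAGATGG) was in 6.25%, against 7.29% and 7.01%, and the cyclic AMP response element in 2.08%, against 2.1% and 1.83%. The members' promoters were richer in G and C, with a median of 59.8%, against 55% and 51.7%, and a median of 24 CpG pairs, against 11 and 7. The motifs searched contain a CpG, apart from the TATA box, the CCAAT box and the YY1 core. No motif of the set contains another, and none of these shares says that a factor binds.

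Taken by library rather than by gene, control replicate 4 stood out. It held the highest of the 10 values in 19 of the 52 members, 36.5%, against 23.8% of all rows tested. It held the lowest value in 3 members, 5.77%, against 23.9% of all rows, so over all rows it was extreme in both directions. The median log2 difference of the members from the control mean was 0.0856 in that library, while the other controls lay between -0.0339 and -0.000221 and the ELS libraries between -0.0617 and -0.00344. In all rows tested the medians were -0.0116 to 0.0234. By family, the median in control replicate 4 was 0.128 for SR proteins, 0.108 for snRNP proteins and 0.0484 for hnRNPs, but -0.00201 for SF3A and SF3B. The same library had the highest oligodendrocyte, astrocyte and microglial marker sums of all libraries. Its neuronal sum, 2739 RPKM, was the highest of the controls, and its endothelial and pericyte sum, 68.35 RPKM, was the lowest of all libraries. Single neuronal markers went both ways in that library. Camk2a (964 RPKM), Slc17a7 (427), Nefl (180.2) and Neurod6 (79.4) were the highest of the controls. Snap25 (542 RPKM), Syt1 (267) and Gad1 (37.3) were the lowest of the controls, and Stmn2, Rbfox3 and Gad2 lay between. The part of these in the members' levels was not tested. ELS replicate 2 held the lowest value of 9 members, 17.3%, against 8.49% of all rows.

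**Figure D4:**
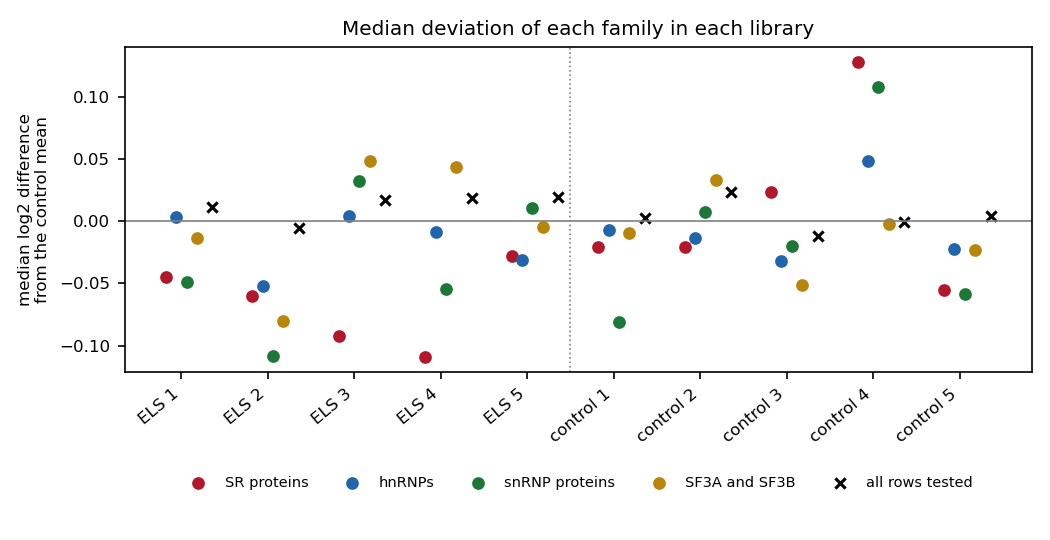
Median log2 difference of each family from the mean of the 5 controls (y axis) in each library (x axis, ELS left of control), with the median of all rows tested as a cross. SR and snRNP protein genes reach 0.128 and 0.108 in control replicate 4, and SF3A and SF3B genes do not share that shift.

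Other genes of the splicing pathway, in 6 lists outside the members, also gave 0 rows at an adjusted p under 0.05. Of 67 rows of other core spliceosome genes, with Crnkl1 on a pair of them, limma gave 4 higher and 6 lower at an unadjusted p under 0.05. That is 14.9% of the list, against 20.4% of all rows tested, and the median log2 fold change was -0.01. Lsm6, of the ring on U6 RNA, was at 3.04 ± 0.423 RPKM in ELS and 3.84 ± 0.27 RPKM in controls. Snrnp48, of the minor spliceosome, was at 9.74 ± 0.93 RPKM in ELS and 11.8 ± 1.20 RPKM in controls. Of 42 neuronal and regulated splicing factors 3 were higher and 5 lower at that p, 19% of the list, with a median of -0.02. Ptbp3 was at 1.77 ± 0.542 RPKM in ELS and 2.75 ± 0.278 RPKM in controls, and Tia1 at 14.4 ± 1.62 RPKM in ELS and 17.7 ± 1.43 RPKM in controls, where no ELS library reached a control.

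A list of 13 genes, made up of kinases of splicing factors, the phosphatase regulator Ppp1r8 and nuclear import receptors of the transportin group, had 3 higher and 1 lower at an unadjusted p under 0.05. That is 30.8% of the list, against 20.4% of all rows tested. Tnpo2, an importin of the transportin group, was at 40.6, 38.9, 43.0, 43.8 and 42.3 RPKM in ELS and at 37.0, 37.8, 36.8, 37.3 and 37.4 RPKM in controls, above all controls in 5 of 5 ELS libraries (log2 fold change 0.16 ± 0.04, limma adjusted p = 0.133). Tnpo1, which carries hnRNP A1 into the nucleus, was at 7.49, 8.4, 5.98, 5.82 and 6.59 RPKM in ELS and at 8.29, 9.72, 8.69, 8.13 and 9.29 RPKM in controls (log2 fold change -0.37 ± 0.10, limma adjusted p = 0.133), with ELS replicate 2 among the controls. Of 19 hnRNP-like and FET genes 2 were lower at an unadjusted p under 0.05, 10.5% of the list, against the same 20.4% of all rows. Sfpq was at 25.4 ± 2.52 RPKM in ELS and 29.9 ± 3.55 RPKM in controls, and Syncrip at 7.47 ± 0.82 RPKM in ELS and 8.53 ± 0.619 RPKM in controls. Sm ring assembly was covered by 15 rows, with Gemin7 on a pair of them, and the exon junction complex by 8. None of these rows had an unadjusted p under 0.05 by limma. The lowest p there belonged to Strap and Coil, with limma adjusted p of 0.246 and 0.304, and to Casc3 and Rnps1, with 0.328 and 0.519. The median log2 fold change was 0.01 for the list of kinases and import receptors with Ppp1r8, -0.02 for the hnRNP-like and FET genes, -6.85e-05 for Sm ring assembly and 0.04 for the exon junction complex.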

How the data were processed

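Prefrontal cortex RNA was sequenced from 5 ELS and 5 control rats with a stranded mRNA kit, per the labels' protocols. STAR, featureCounts and the build rn6 are named by the submitters' processing notes without versions; no source used here gives the annotation, the strand setting or any row filter. RPKM values in 1 table were deposited, scaled by gene length and library total, with no scaling between samples found; RPKM or FPKM is not stated. Every column name matched 1 title, with 0 columns left over. Whole reads and totals were recovered from the steps of the values for 16015 rows, 100% of those above 0, within 0.002 reads. Only precision from counting follows from these totals.

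Values were taken as log2(RPKM + 0.1), which understates changes of low genes. Testing needed 0.5 RPKM or more in at least 5 libraries; 14642 rows qualified, every member among them, and 1399 did not. All genes were fitted, ELS against control, with limma 3.58.1 in R 4.3.3 (trend, robust, two-sided, Benjamini-Hochberg, threshold 0.05). The procedure was tested on simulated data. Alternatives were the pseudocount, the filter, the scaling, limma-voom on recovered reads with and without sample weights, a replicate block, and libraries left out. Without a stated strand setting, reads of overlapping and antisense genes cannot be told apart, and near-identical copies can share reads.

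Members, lists, tests and motifs were chosen with earlier results of these data known. Named were, per family, the 2 members of lowest p per direction, the 2 of highest and the 1 of lowest mean, and members whose groups did not overlap; 23 members met this, and others are described by ranges or for the reason given. In each related list the 2 genes of lowest p were named. Promoter sequences are from RefSeq on GRCr8, another build than that of the table.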

Additional observations from a re-analysis of the deposited data

Results flagged for a closer look

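Among 104 groups of 5 libraries (52 members in each condition), 11 had a highest or lowest library whose gap to its neighbour exceeded 0.71 of the group's range, where chance flags about 1 in 20 groups, or 5.2. Control replicate 4 was the high library in 5 of them: Srsf1 at 33.9 RPKM against 27.4 to 28.8 RPKM in the other controls, Srsf7 at 40.6 against 36.6 to 37.5, Hnrnpa1 at 52.1 against 42.3 to 44.6, Hnrnpa2b1 at 147 against 114 to 122, and Hnrnph1 at 66.1 against 55.4 to 57.8 RPKM. The flags in the ELS group were spread over 4 libraries. ELS replicate 2 was low in Sf3a1, at 11.6 RPKM against 13.3 to 13.8 RPKM in the other ELS libraries. ELS replicate 1 was low in Srsf7, at 32.0 RPKM against 35.0 to 36.2, and high in Hnrnpc, at 2.37 RPKM against 1.31 to 1.45. ELS replicate 4 was low in Hnrnph1, at 50.3 RPKM against 54.2 to 55.4, and in Snrpf, at 5.61 RPKM against 6.31 to 6.53. ELS replicate 5 was high in Snrpn, at 1.08 RPKM against 0.655 to 0.726.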

How the results depend on the processing

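No member passed the adjusted threshold in any of the 18 alternative settings, although over all rows the count was 944 with sample weights, 444 without ELS replicate 2, 1116 without control replicate 4 and ELS replicate 2, and 1 without ELS replicate 5. The lowest adjusted p of a member was 0.0694, for Hnrnph2 without those 2 libraries. The count of members higher at an unadjusted p under 0.05 was 4 with sample weights, where the share of all rows was 12.4%. Without those 2 libraries the count was 6, where the share was 13.9%. Leaving out 1 library gave 1 to 3, where the share was 6.78% to 11.4%. The count of lower members was 8 with upper quartile scaling, where the share of all rows was 12.6%. It was 2 to 6 when 1 library was left out, where the share was 7.78% to 11.2%. The count was 2 without control replicate 4, ELS replicate 3 or ELS replicate 4. The split of the members was 1 higher and 8 lower under upper quartile scaling, where the shares of all rows were 7.25% and 12.6%. That scaling moved the median of all rows to -0.0218. The members' median stayed between -0.0489 and -0.0173 without single libraries. With the replicate number as a block (replicate block), 1 member was higher and 3 were lower, where the shares of all rows were 7.5% and 9.61%. Same-numbered libraries correlated at -0.0817 to 0.0658 in their deviations. Such correlations show no pairing but cannot exclude one, and the labels do not say whether the numbers pair. Of the named members' values under alternatives, 397 kept their direction and 17 changed sign: Srsf4 (-0.0185) and Snrpd1 (-0.00121) with upper quartile scaling, Snrpe (3.05e-05) with sample weights, Srsf5 (0.0107) and Hnrnpa2b1 (0.0104) without the 2 libraries, and, without single libraries, Sf3a2 (-0.0993 to 0.0248), Srsf4 (-0.0141 to 0.0386), Srsf5 (-0.0251 to 0.00701), Snrpd1 (-0.0134 to 0.0548) and Snrpe (-0.036 to 0.0446). The cause was not tested. Members of few reads, such as Snrpn and Snrpc, have the widest intervals.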

Other observations

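The members, like the 6 related lists, varied less between libraries of a group than rows did in general. The median coefficient of variation was 4.87% in ELS and 7.69% in controls for the members, and 8.33% in ELS and 11.5% in controls for all rows tested. Without control replicate 4 the control medians were 5.55% and 8.79%. In the 6 lists the medians were 4.18% to 6.02% in ELS and 5.76% to 8.52% in controls. Members were also more abundant than rows in general, with a median level of 19.7 RPKM against 7.20 RPKM. Hnrnpm and Hnrnpl were the steadiest in ELS, each at 1.26%, and Sf3b1 in controls, at 1.3%. The most variable member was Hnrnpc, which binds U-rich tracts, at 2.37, 1.31, 1.34, 1.45 and 1.36 RPKM in ELS and at 0.898, 1.17, 2.75, 1.67 and 3.03 RPKM in controls, on 32 to 104 reads. Its high values fell in 1 ELS library and 2 control libraries, so the spread did not follow the groups (log2 fold change -0.16 ± 0.32, 95% interval -0.88 to 0.55).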
